A study of Mus musculus with 18 samples.

Results

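Saa1, Saa2, Saa3, Lcn2, Lrg1 and Hp, 6 acute-phase genes taken by their symbols from the 36757 genes of a mouse RNA sequencing count table, were followed through a colitis model, a colitis-associated colorectal cancer (CAC) model and organoids grown from CAC tumors. Each model had 3 libraries labelled wild type, which are RNF138fl/fl by the treatment protocol, and 3 libraries labelled RNF138-/-, which gave 18 libraries in 6 groups. RNF138 is an E3 ubiquitin ligase, and the study asked how its loss bears on inflammation and tumor growth in the colon. The mice were C57BL/6, 6 to 8 weeks old at the start. For colitis, 2% dextran sulfate sodium (DSS, a polymer that damages the colonic epithelium) was given in drinking water for 7 days with 14 days of plain water after it, the cycle was repeated, and the mice were killed 4 weeks after the last cycle. CAC mice had the same DSS cycles starting 4 days after one injection of azoxymethane (AOM, a colon carcinogen) at 10 mg/kg. Tumor fragments of CAC mice were digested and cultured in matrigel to give the organoids, so all 18 libraries come from DSS-treated animals or their tumors and none from an untreated colon. The labels call the 3 libraries of a group separate samples and do not say whether each organoid library came from another mouse, so the p-values below measure only the spread between these samples.

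Acute-phase proteins are secreted in large amounts when cytokines of the IL-6 and IL-1 families act on a cell, mostly in the liver but also at inflamed epithelia, where STAT3, C/EBP and NF-κB factors drive their genes. The serum amyloid A proteins (Saa1, Saa2 and Saa3) are small lipid-binding apolipoproteins that attract phagocytes, and in the mouse Saa3 is the form made mainly outside the liver. Lcn2 encodes lipocalin 2, which binds bacterial siderophores and thereby withholds iron, and faecal lipocalin 2 is a common readout of mouse colitis. Lrg1 encodes a leucine-rich glycoprotein that binds the TGF-β co-receptor endoglin. Hp encodes haptoglobin, which captures free hemoglobin for uptake through CD163.

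The 3 serum amyloid genes among the members lie near one another on chromosome 7 of mm10. Saa1 (ENSMUSG00000074115.5, chr7:46740497-46742980, minus strand) and Saa2 (ENSMUSG00000057465.5, chr7:46751790-46754313, plus strand) are divergent neighbours with 8809 bases between them, and Saa3 (ENSMUSG00000040026.8, chr7:46711998-46715700, minus strand) lies 24796 bases from Saa1. Lcn2 (ENSMUSG00000026822.14) is at chr2:32384633-32388252, Lrg1 (ENSMUSG00000037095.7) at chr17:56119678-56122001 and Hp (ENSMUSG00000031722.10) at chr8:109575128-109579172, all on the minus strand. All 6 are annotated as protein coding. Saa1 and Saa2 are near copies: of the 50-base windows of their transcripts, 31.5% of those of Saa1 and 30.0% of those of Saa2 also occur in another gene, nearly always the other of the pair. Their counts are therefore uncertain wherever the counting could split or drop such reads. The share was 4.15% for Saa3 and 0% for Lcn2, Lrg1 and Hp. Windows were taken over all annotated transcripts, for Saa1 and Saa2 over 2478 and 2518 exonic bases. The share within the principal transcripts of this pair, of 609 and 652 bases, was not measured.

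Upstream sequence shows how close this pair is. It is printed here because Saa1 and Saa2 were counted apart yet varied together between replicates of a group. Pearson's r of the pair was 0.89 with group means subtracted and 0.54 over the 18 libraries as they are. The sequences are RefSeq's (GRCm38.p6, the build of the files), cover up to 250 bases before each RefSeq transcript start, and were matched by symbol for 5 of the 6 genes, all but Hp. Only bases outside the exons of the annotation are shown. Capitals in the first pair mark each base that differs between them. In the stretches of Saa3 and Lrg1, which stand for the member with a C/EBP core in that stretch and the member without one, capitals mark that core.

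Saa1, chr7:46742981-46743230, minus strand: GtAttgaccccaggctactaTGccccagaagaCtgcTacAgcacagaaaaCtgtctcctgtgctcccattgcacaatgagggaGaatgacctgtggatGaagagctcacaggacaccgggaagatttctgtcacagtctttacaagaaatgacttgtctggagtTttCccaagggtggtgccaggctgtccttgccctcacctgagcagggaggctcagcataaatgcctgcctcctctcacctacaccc
Saa2, chr7:46751583-46751789, plus strand: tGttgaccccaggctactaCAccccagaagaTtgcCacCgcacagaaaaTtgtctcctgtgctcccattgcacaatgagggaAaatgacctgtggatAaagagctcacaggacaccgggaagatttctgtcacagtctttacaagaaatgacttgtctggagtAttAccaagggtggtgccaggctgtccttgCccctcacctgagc
Saa3, chr7:46715701-46715926, minus strand: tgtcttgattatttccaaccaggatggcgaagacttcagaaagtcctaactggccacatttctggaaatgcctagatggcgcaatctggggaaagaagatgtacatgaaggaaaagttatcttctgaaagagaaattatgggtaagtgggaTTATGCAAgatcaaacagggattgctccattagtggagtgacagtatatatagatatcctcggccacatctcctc
Lrg1, chr17:56122002-56122196, minus strand: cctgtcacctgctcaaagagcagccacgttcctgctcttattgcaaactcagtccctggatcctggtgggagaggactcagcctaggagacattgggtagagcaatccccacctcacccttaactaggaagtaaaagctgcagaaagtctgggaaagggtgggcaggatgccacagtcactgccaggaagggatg

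Over the full 250 bases, the Saa1 and Saa2 sequences were 94.8% identical, with 11 substitutions and 1 base present in only one of them on each side. Counted from 1 at the 5′ end of the Saa1 stretch, the substitutions nearest to the transcript start were T165A and C168A, and that farthest from it was A3G. By the same alignment Saa1 and Saa3 were 52.2% identical, and the 9 pairs other than Saa1 and Saa2 lay between 49.5% and 54.5%. The C/EBP core TTGCNNAA, searched on both strands, was found at −182 to −175 from the start of Saa1, −183 to −176 of Saa2, −99 to −92 of Saa3 and −216 to −209 of Lcn2, and 9.56% of 32851 mouse promoters of this length hold it. The Lcn2 stretch precedes the RefSeq start but lies wholly within the annotated Lcn2 gene, so it is not upstream by that annotation. The κB consensus, the STAT core TTCNNNGAA and the TATA box TATAAA had no match in any of the 5 stretches, against 7.25%, 7.02% and 12.4% of all promoters. These matches are descriptions of the letters only.

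Total counts were between 11514716 and 24390082 per library, with a median of 17332367, and replicates of a group differed by far more than sampling noise, with a chi-square of at least 8.05 per degree of freedom. Levels are given as CPM, the count scaled by the library total after TMM normalization over the 18 libraries. The targeted gene differed between the labelled genotypes by less than the spread between replicates in colitis and the organoids and had the higher mean in RNF138-/- CAC. Rnf138 had 19.6 ± 4.95 against 18.8 ± 0.757 CPM in colitis, 25.4 ± 3.42 against 43.5 ± 3.40 in CAC and 48.9 ± 9.78 against 46.9 ± 3.81 in the organoids (wild type first, SD, n = 3). The counts do not show whether the remaining transcript is whole, so every genotype difference below is one between libraries labelled RNF138-/- and wild type. All 3 wild-type organoid libraries had 0 counts of the Y-linked genes Ddx3y, Eif2s3y, Kdm5d and Uty with Xist between 390.4 and 464 CPM. The 3 RNF138-/- organoid libraries expressed the Y-linked genes, so sex and genotype cannot be told apart in the organoids. The 12 tissue libraries all had Xist under 1 CPM, at most 0.584.

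Per length of transcript, Saa1 had the highest mean of the 6 genes in all 4 tissue groups. Its level was 376, 421 and 447 CPM in the wild-type colitis libraries, and 1080.0, 339 and 939 CPM in the RNF138-/- ones, where replicate 2 fell below every wild-type library. In CAC it reached 1118, 359.8 and 788 CPM in wild type but 276, 42.2 and 162 CPM in RNF138-/-, and these ranges did not overlap. The organoids held 58.8, 30.1 and 42.5 CPM in wild type and 49.5, 40.2 and 66.7 CPM in RNF138-/-, group means below those of every tissue group, although RNF138-/- CAC replicate 2 lay within their range. From the lowest mean to the highest, the order was wild-type organoids, RNF138-/- organoids, RNF138-/- CAC, wild-type colitis, wild-type CAC and RNF138-/- colitis. Among neighbours in this order the ranges were apart only between RNF138-/- CAC and wild-type colitis. Per length of the principal transcript, Saa1 stood at 681 ± 59.4 RPKM in wild-type colitis (SD, n = 3), where the other 5 members had means between 0.574 and 3.57 RPKM.

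Saa2 was counted far less often than its near copy. It had 4, 5 and 10 counts in wild-type colitis and 9, 5 and 14 in RNF138-/- colitis, levels of at most 0.721 CPM. Wild-type CAC had 18.4, 6.86 and 12.5 CPM, RNF138-/- CAC had 7.06, 1.05 and 3.66 CPM, and the ranges of the genotypes overlapped by 1 library on each side. In the organoids 4 counts were found over the 3 RNF138-/- libraries and 0 over the 3 wild-type ones, where 0 counts allow up to 3 per library. Of all counts given to either gene, Saa2 took 0.0885% in wild-type colitis and 0.0667% in RNF138-/- colitis, but 1.66% and 2.38% in CAC, with no library of CAC under 1.56% and none of colitis above 0.138%.

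Saa3 was low in wild-type colitis, at 1.00, 1.57 and 2.85 CPM from 18 to 46 counts, and stood at 6.46, 4.97 and 13.2 CPM in RNF138-/- colitis. Every RNF138-/- colitis library was above every wild-type one. The CAC levels were 32.9, 26.8 and 49.5 CPM in wild type and 103, 125 and 84.9 CPM in RNF138-/-, again without overlap. Wild-type organoids had 29.9, 38.0 and 104 CPM, with replicate 3 well above the other two, and RNF138-/- organoids had 92.4, 119 and 91.7 CPM. The 4 highest groups of the order (wild-type CAC, wild-type organoids, RNF138-/- organoids, RNF138-/- CAC) each overlapped with the next, while the lowest 2, those of colitis, did not overlap with each other or with wild-type CAC.

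Lcn2 was low in colitis and the most abundant member per length in the organoids. It had 3.07, 3.03 and 3.71 CPM in wild-type colitis and 4.18, 3.59 and 6.65 CPM in RNF138-/- colitis, ranges that overlapped by 1 library on each side. In CAC the level was 56.7, 68.7 and 16.0 CPM in wild type and 166, 300.2 and 83.7 CPM in RNF138-/-, and in the organoids 828, 1507 and 703 CPM in wild type and 488, 463 and 594 CPM in RNF138-/-. Replicate 3 was the lowest library of both CAC groups. Apart from the pair of colitis groups, every step of the order from colitis through CAC to RNF138-/- organoids and wild-type organoids was free of overlap. Per length, the organoids held Lcn2 at 1106 ± 473 RPKM in wild type and 563 ± 76.3 in RNF138-/- (SD, n = 3), above the other 5 members in the same libraries, whose means were at most 182.

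Lrg1 had 4.69, 4.77 and 3.84 CPM in wild-type colitis and 9.45, 5.39 and 6.44 CPM in RNF138-/- colitis, without overlap. In CAC it had 12.05, 22.4 and 2.18 CPM in wild type, where replicate 3 was below every colitis library, and 76.6, 127 and 44.1 CPM in RNF138-/-. Wild-type organoids had 73.2, 142 and 81.0 CPM and RNF138-/- organoids 50.3, 32.9 and 55.8 CPM. The genotypes did not overlap in CAC or in the organoids, and RNF138-/- was the higher one in CAC and the lower one in the organoids.

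Hp had 0.502, 1.12 and 1.05 CPM in wild-type colitis, from 9 to 20 counts, and 1.49, 1.92 and 4.64 CPM in RNF138-/- colitis. The level in CAC was 23.2, 28.3 and 12.3 CPM in wild type and 74.4, 141 and 70.1 CPM in RNF138-/-. In the organoids it was 41.0, 24.6 and 19.0 CPM in wild type and 235, 264 and 208 CPM in RNF138-/-. Hp is the one member whose RNF138-/- libraries lay above every wild-type library in all 3 models. In these bulk samples, fewer cells of a type and less RNA per cell cannot be told apart, for Hp or any other member.

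**Figure D1:**
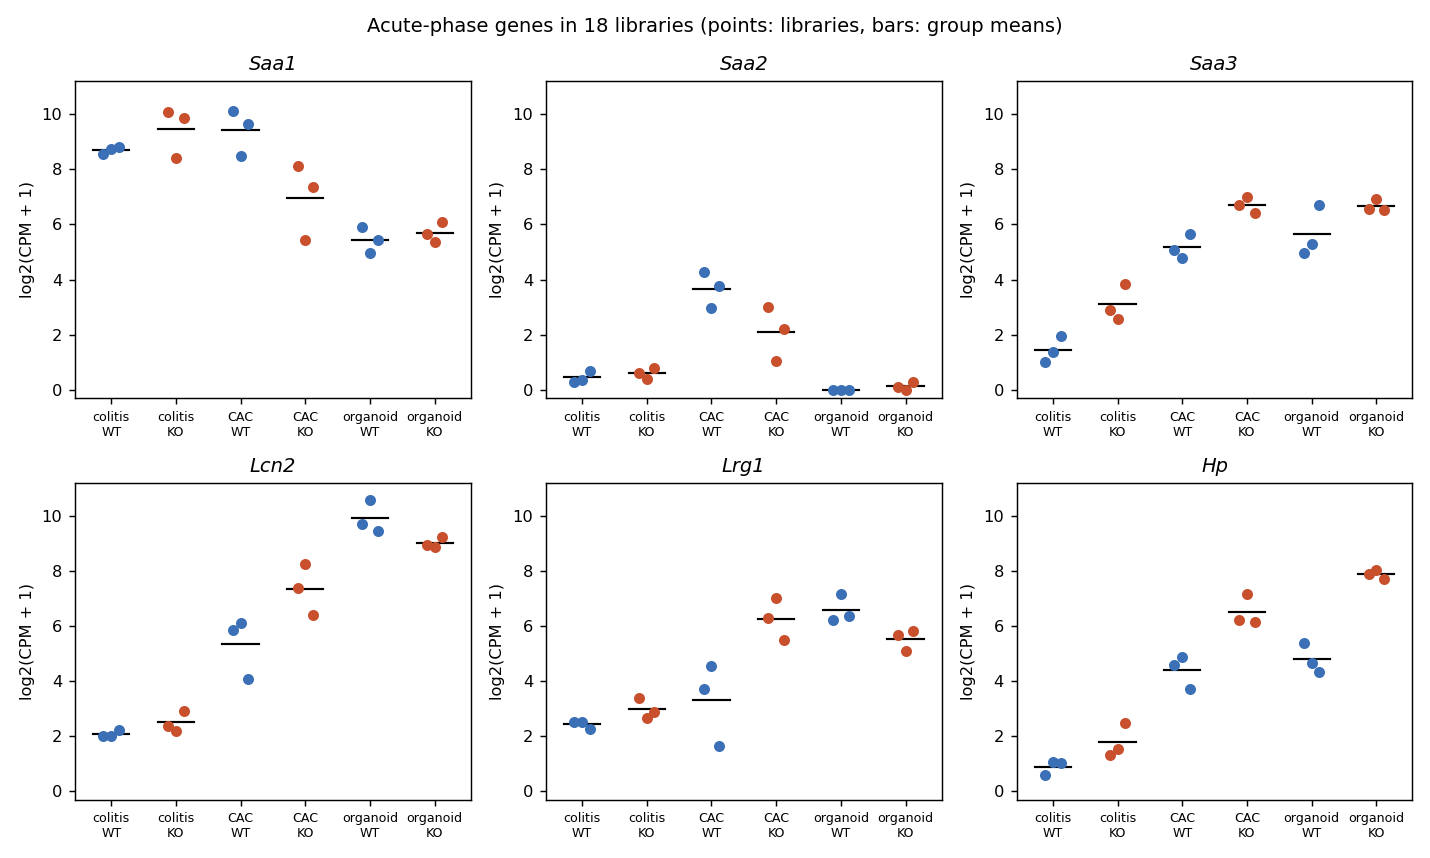
Levels of the 6 genes in the 18 libraries, as log2(CPM + 1) on the vertical axis against the group on the horizontal axis (WT, wild type in blue; KO, libraries labelled RNF138-/- in orange); points are libraries, set side by side in order of replicate number, and bars are the means of the plotted values. Lcn2 climbs from at most 6.65 CPM in colitis to at least 463 CPM in the organoids, Saa1 runs the other way to at most 66.7 CPM, and Hp is higher in RNF138-/- in every model.

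Within colitis, CAC and organoids in turn, RNF138-/- was set against wild type by edgeR's quasi-likelihood test with Benjamini-Hochberg adjustment over all genes tested, and a gene was called at an adjusted p under 0.05 with a fold change of at least 2. In colitis all 5 members that passed the filter on low counts had a positive log2 fold change (RNF138-/- over wild type), and none was called. Saa2 was removed by that filter. Of 16623 genes tested in colitis, 0.0902% were called (0.0180% higher and 0.0722% lower), and 2 of the 5 members had an unadjusted p under 0.05 with the same fold change, as did 4.48% of all genes. All counts below at an unadjusted p under 0.05 also need this fold change, except for interactions, so genes under it are left out. DESeq2 called 1 of the 5, Saa3, beside 2.07% of the genes to which it gave an adjusted p. The log2 fold change of Saa3 was 2.19 (SE 0.51, adjusted p = 0.196), that of Hp 1.60 (SE 0.54, adjusted p = 0.360) and that of Saa1 0.92 (SE 0.39, adjusted p = 0.467). Lrg1 had 0.67 (SE 0.29, adjusted p = 0.467) and Lcn2 0.56 (SE 0.32, adjusted p = 0.605). With the replicate number as a block, which the correlations of same-numbered libraries allowed in colitis (0.32, 0.17 and 0.62, beside 0.31 and 0.32 between numbers 1 and 2), Saa3 was called by edgeR with a log2 fold change of 2.17 and an adjusted p of 0.0413. The ranges of Saa3, Lrg1 and Hp did not overlap, all 3 above wild type, where 17.2% of the genes tested did not overlap (8.86% above and 8.34% below). An exact permutation test of a single gene (two-sided, n = 3 against 3) gave p = 0.1 for these 3 genes, the smallest p it can give. Summed CPM of 6 T cell markers were between 16.2 and 17.4 in wild-type colitis and between 32.8 and 42.0 in RNF138-/- colitis, without overlap. Of these 6, edgeR called 0, 4 had an unadjusted p under 0.05 and DESeq2 called 2, both higher. Those of 7 hepatocyte markers were between 18.1 and 21.8 against 7.71 and 10.4. Of 3 hepatocyte markers tested edgeR called 0, 2 had an unadjusted p under 0.05 and DESeq2 called 2, both lower. Of 7 B and plasma cell markers edgeR called 0, 2 had an unadjusted p under 0.05 and DESeq2 called 2, both higher. Of 3 adipocyte markers tested edgeR called 0, 1 had an unadjusted p under 0.05 and DESeq2 called 1, higher. The adipocyte marker Cidec had between 1.61 and 2.85 CPM in wild type and between 9.92 and 25.4 in RNF138-/-. The 12 neutrophil markers summed to between 24.0 and 32.7 CPM in wild type and between 7.67 and 27.8 in RNF138-/-, a sum made up mostly of Ly6g (20.2 to 28.9 against 2.22 to 23.0 CPM), whereas the mean of Csf3r was 2.35 CPM in wild type and 3.89 in RNF138-/-. Of 3 neutrophil markers tested, edgeR called 0, 1 had an unadjusted p under 0.05 and DESeq2 called 1, lower. The part of these markers was not tested.

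In CAC the 6 members went in different directions. Hp rose by a log2 fold change of 2.11 (SE 0.39, adjusted p = 0.0381), and Saa3 by 1.46 (SE 0.27, adjusted p = 0.0381), so 2 of the 6 members were called, both higher, among 17752 genes of which 5.37% were called, 0.546% higher and 4.83% lower. Lrg1 had a larger log2 fold change of 2.69 with more spread (SE 0.77, adjusted p = 0.0746), and Lcn2 had 1.91 (SE 0.64, adjusted p = 0.0974). Saa1 and Saa2 pointed down, with −2.29 (SE 0.72, adjusted p = 0.0875) and −1.73 (SE 0.69, adjusted p = 0.134). Saa3, Lcn2, Lrg1 and Hp lay above wild type without overlap, as 24.4% of the genes tested did, and Saa1 lay below it, as 20.8% did, so 5 of 6 members did not overlap beside 45.2% of all genes. All 6 members had an unadjusted p under 0.05 with a fold change of at least 2, as did 16.4% of all genes tested (762 higher and 2151 lower). DESeq2 called all 6 in these directions, beside 13.9% of all genes. The calls of Saa3 and Hp were lost in edgeR when any one of the CAC libraries but wild-type replicate 3 was left out, with log2 fold changes between 1.29 and 1.62 for Saa3 and between 1.73 and 2.38 for Hp and adjusted p between 0.0503 and 0.149. Without RNF138-/- replicate 1 or 2, edgeR called 0 of all genes in this comparison.

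The makeup of the CAC samples differed between the genotypes, and its part in these results was not tested. Summed CPM of 6 smooth muscle markers were between 2505 and 8379 in wild type and between 113 and 242 in RNF138-/-, with 6 of 6 lower, and those of 7 B and plasma cell markers were between 1739 and 2583 against 285 and 404, with 6 of 7 lower. Of 10 epithelial markers 2 were lower by edgeR and 6 by DESeq2, 6 had an unadjusted p under 0.05 and 0 had a log2 fold change above 0, with sums between 10543 and 20987 against 7589 and 9526. Of 5 adipocyte markers tested 4 were lower. The 12 neutrophil markers summed to 234, 113 and 60.5 CPM in the wild-type replicates 1 to 3 and to 449, 328 and 186 CPM in the RNF138-/- ones. None of the 9 neutrophil markers tested was called by edgeR, 6 had an unadjusted p under 0.05 and DESeq2 called 6, and Elane was at 0 in every wild-type CAC library. Neutrophils are a known source of lipocalin 2 and haptoglobin, and macrophage markers, with sums between 175 and 460.3 CPM in wild type and between 339.7 and 385 in RNF138-/-, had 1 of 9 called, lower.

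**Figure D2:**
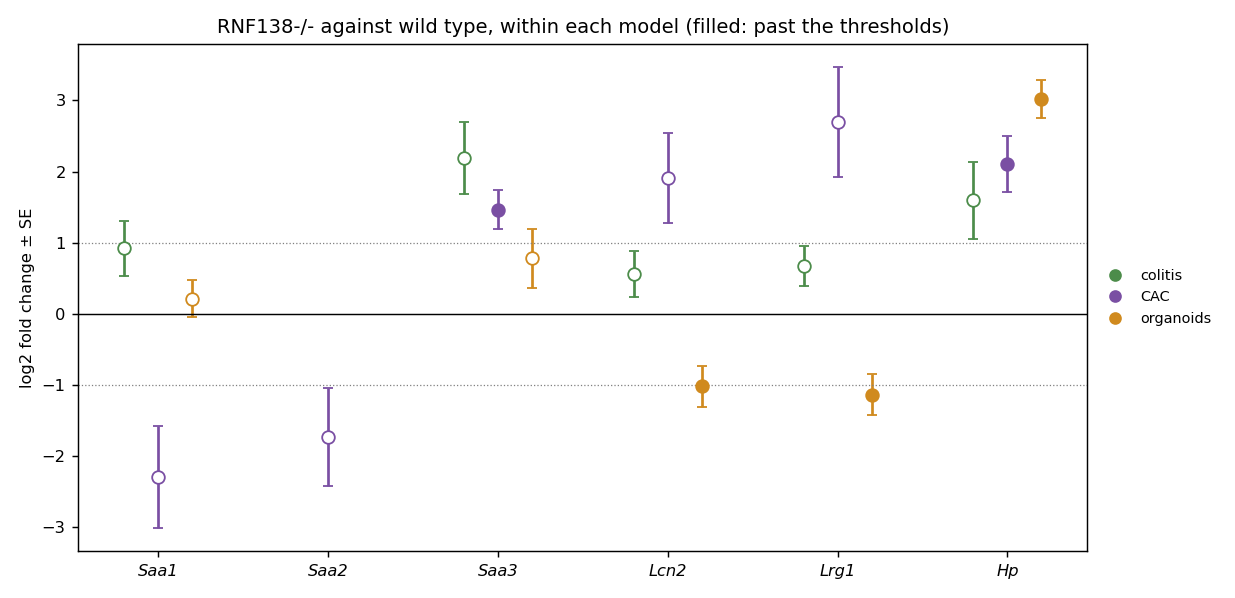
Log2 fold change of each gene between libraries labelled RNF138-/- and wild type within colitis (green), CAC (purple) and organoids (yellow), with the standard error as bars; positive values are higher in RNF138-/-, dotted lines mark a fold change of 2, filled points passed both thresholds, and Saa2 is absent where it did not pass the filter on low counts. Filled points are Saa3 (1.46) and Hp (2.11) in CAC and Hp (3.02), Lcn2 (−1.02) and Lrg1 (−1.13) in the organoids.

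In the organoids Hp rose and Lcn2 and Lrg1 fell. The log2 fold change of Hp was 3.02 (SE 0.27, adjusted p = 7.49e-04), the largest of the 5 members tested in that model. Lrg1 fell by 1.13 on the log2 scale (SE 0.29, adjusted p = 0.0190) and Lcn2 by 1.02 (SE 0.29, adjusted p = 0.0264). Saa3 had 0.78 (SE 0.41, adjusted p = 0.170) and Saa1 0.21 (SE 0.26, adjusted p = 0.540), and Saa2 did not pass the filter. Of 15294 genes tested, 15.0% were called, 7.94% higher and 7.04% lower, beside 1 higher and 2 lower of the 5 members tested, and the same 3 members were the ones without overlap, as were 53.3% of all genes tested, 27.6% above wild type and 25.7% below. DESeq2, by which 15.2% of all genes were called, called Hp and Lrg1 but not Lcn2, which sits at the fold change threshold, with −0.996 by DESeq2, −0.996 with RLE normalization and −0.995 with no filter. In 1 fit of 18 libraries neither Lcn2 (adjusted p = 0.163) nor Lrg1 (adjusted p = 0.164) was called. The log2 fold change of Lcn2 was −0.60 (adjusted p = 0.0387) without wild-type replicate 2, which also took Lrg1 to −0.76 (adjusted p = 0.0465). Without RNF138-/- replicate 2 neither was called (adjusted p = 0.0956 for Lcn2 and 0.0689 for Lrg1), and Lcn2 lost its call without RNF138-/- replicate 1 (−0.97, adjusted p = 0.0854) or 3 (−1.13, adjusted p = 0.0587). Saa3 was called without wild-type replicate 3, with a log2 fold change of 1.54 (adjusted p = 0.00333).

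Cell markers also differed between the organoid genotypes, and their part was not tested. The 7 fibroblast markers summed to 23488, 9227 and 9958 CPM in wild type and to 40953, 50324 and 46781 CPM in RNF138-/-, with 6 of 7 higher, against at most 1751 CPM in any tissue library. Macrophage markers summed to between 20.9 and 29.3 CPM in wild type and between 36.6 and 56.9 in RNF138-/-, with 5 of 7 tested higher and C1qc and Cd163 at 0 in wild type. Epithelial markers summed to between 9933 and 11014 CPM in wild type and between 5938 and 8744 in RNF138-/-, with 2 of 10 lower. Hepatocyte markers, nearly all of them albumin, summed to 485, 2016 and 593 CPM in the wild-type organoid replicates 1 to 3, of which replicate 2 was also the highest in Lcn2 and Lrg1, and to between 258 and 301 in the RNF138-/- ones, against at most 116 CPM in tissue, with 1 of 3 tested lower and Serpina1a at 0 in both organoid groups. The neutrophil sums of 73.6 to 110.1 CPM in the organoids held Ly6g at means of 59.5 and 62.8 CPM, and Ltf at 29.7 and 21.8 CPM in wild type and RNF138-/-. Of 4 neutrophil markers tested between the genotypes, Mmp8 was higher in RNF138-/- (0.113 ± 0.0779 against 3.16 ± 0.726 CPM, SD, n = 3) and S100a8 lower (1.29 ± 0.634 against 0.523 ± 0.132 CPM). The markers S100a9, Csf3r and Cxcr2 had means of at most 0.0674 CPM in both and Retnlg was at 0. Smooth muscle markers summed to between 265 and 1358 CPM in wild type and between 1583 and 1779 in RNF138-/-, with 2 of 6 higher.

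**Figure D3:**
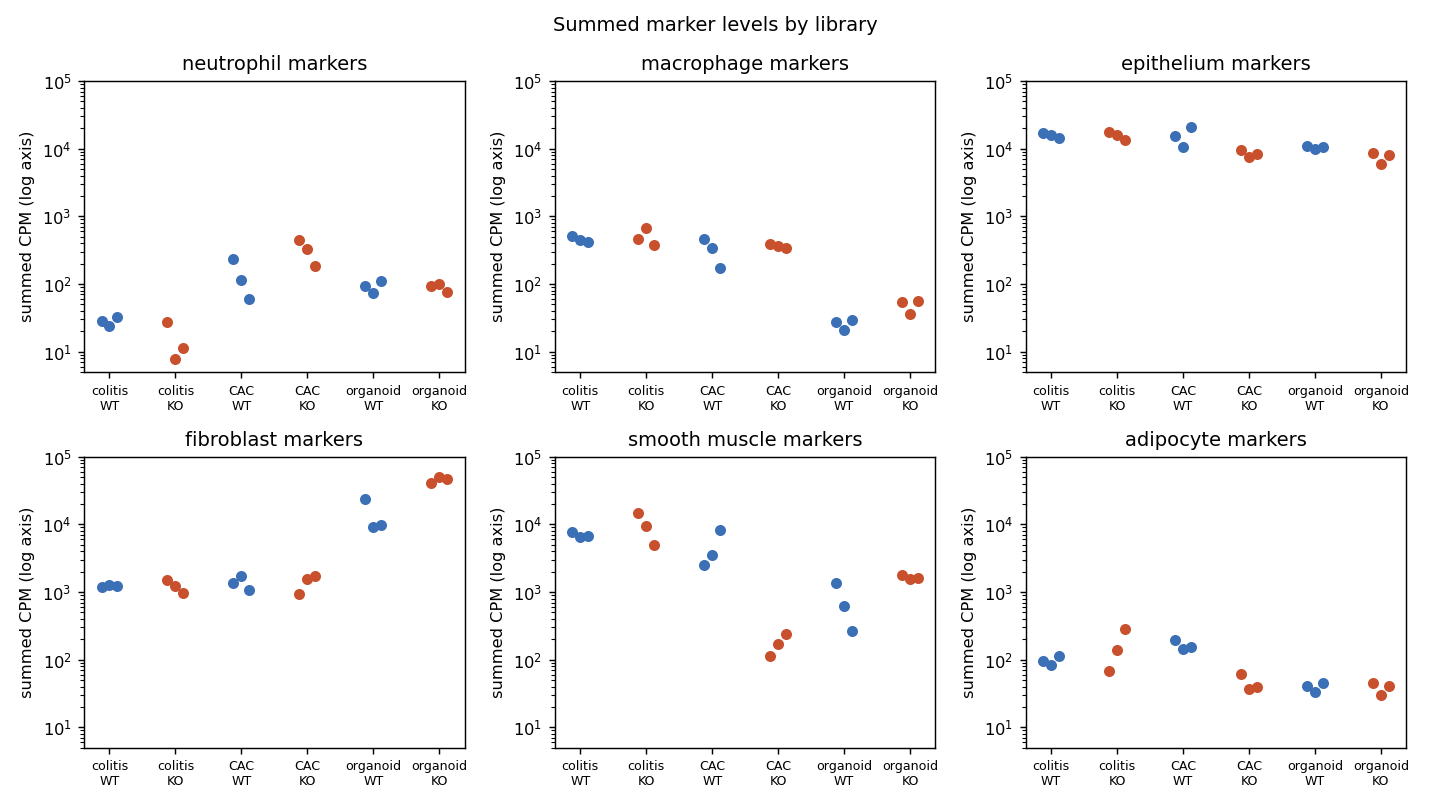
Summed CPM (log axis) of marker genes of 6 cell types by group, one point per library, blue for wild type (WT) and orange for RNF138-/- (KO). Fibroblast markers reach between 9227 and 50324 CPM in the organoids, smooth muscle markers drop to between 113 and 242 CPM in RNF138-/- CAC, and neutrophil markers reach up to 449 CPM in RNF138-/- CAC, while wild-type CAC goes down to 60.5 CPM, below every organoid library.

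Whether the genotype difference itself differed between models was tested by interaction contrasts in 1 fit of the 18 libraries, called at an adjusted p under 0.05. Saa1 differed between CAC and colitis, with a log2 difference of −3.16 (SE 0.78, edgeR adjusted p = 0.0151), since RNF138-/- had the lower level in CAC and the higher mean in colitis. It was the only member of 6 called in this contrast, in which 14.1% of 19390 genes were (4.21% higher and 9.88% lower), and Lrg1, with 2.06, had an adjusted p of 0.0845. DESeq2 called 2 members here, Saa1 and Lrg1, beside 18.9% of all genes. Between organoids and CAC, 3 of the 6 members were called where 23.3% of all genes were (13.1% higher and 10.2% lower). These were Lrg1 at −3.82 (SE 0.76, adjusted p = 0.00252), Lcn2 at −2.93 (SE 0.67, adjusted p = 0.00577) and Saa1 at 2.49 (SE 0.77, adjusted p = 0.0295). DESeq2 called these 3 and Saa2 (4.58, adjusted p = 0.0240), beside 27.8% of all genes. The Saa1 call of this contrast was lost in edgeR without wild-type CAC replicate 1 (2.12, adjusted p = 0.0647), RNF138-/- CAC replicate 3 (2.51, 0.0534), wild-type organoid replicate 2 (2.28, 0.0768) or 3 (2.49, 0.0581), or RNF138-/- organoid replicate 3 (2.28, 0.0682). Hp did not pass in either contrast, with 0.55 (SE 0.67, adjusted p = 0.625) between CAC and colitis and 0.91 (SE 0.55, adjusted p = 0.251) between organoids and CAC. Between organoids and colitis no member was called by edgeR or DESeq2, beside 7.11% of all genes (4.52% higher and 2.58% lower) by edgeR and 13.1% by DESeq2. An unadjusted p under 0.05 was given by edgeR to 3 of the 6 members and to 24.9% of all genes.

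Differences between models within a genotype came from the same fit, and they include all that differed between the models by the protocols, such as AOM, or dissection and culture for the organoids. From colitis to CAC in wild type, Saa2, Hp, Saa3 and Lcn2 rose, 4 of 6 members, in a contrast in which 13.6% of 19390 genes were called, 9.78% higher and 3.81% lower. The log2 fold changes were 5.06 for Saa2 (SE 0.76, adjusted p = 4.47e-04), 4.58 for Hp (SE 0.50, adjusted p = 2.18e-05), 4.33 for Saa3 (SE 0.53, adjusted p = 5.20e-05) and 3.85 for Lcn2 (SE 0.54, adjusted p = 1.64e-04). Saa2 had at most 10 counts in a wild-type colitis library and passed the filter of this fit only through its CAC libraries. The Saa2 call therefore follows in part from the filter. Lrg1 had 1.49 (SE 0.56, adjusted p = 0.0711) and was called by DESeq2 (1.46, adjusted p = 0.0352), with no filter on low counts (1.49, adjusted p = 0.0181) and without wild-type CAC replicate 3 (1.96, adjusted p = 0.00362), the library in which it had 23 counts. Saa1 had 0.87 (SE 0.54, adjusted p = 0.274), so the near copies Saa1 and Saa2 differed in this contrast.

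In RNF138-/- all 6 members were called between colitis and CAC, where 37.1% of the genes tested were (17.5% higher and 19.6% lower). Lcn2 rose by a log2 fold change of 5.25 (SE 0.56, adjusted p = 4.64e-06), Hp by 5.13 (SE 0.48, adjusted p = 1.64e-06), Saa3 by 3.66 (SE 0.48, adjusted p = 2.33e-05), Lrg1 by 3.54 (SE 0.58, adjusted p = 1.24e-04) and Saa2 by 2.88 (SE 0.70, adjusted p = 0.00324). The same limit of the filter holds for Saa2 here, with at most 14 counts in a colitis library. Saa1 alone fell, by 2.30 on the log2 scale (SE 0.56, adjusted p = 0.00281). Neutrophil markers moved with this contrast in both genotypes, with 8 of 10 tested higher and medians of the summed CPM of 28.4 and 11.5 in wild-type and RNF138-/- colitis against 113 and 328 in CAC. Other markers moved as well: in RNF138-/- 6 of 6 smooth muscle, 7 of 7 adipocyte, 6 of 7 B and plasma cell and 5 of 10 epithelial markers were lower in CAC. Of 4 hepatocyte markers tested 2 were higher in RNF138-/- CAC, with sums over the 7 markers between 7.71 and 10.4 CPM in colitis and between 35.4 and 116 in CAC. Of 6 T cell markers 1 was higher and 2 were lower in RNF138-/-, and of 9 macrophage markers 2 were higher and 2 lower. In wild type 4 of 7 adipocyte markers were higher and 1 of 10 epithelial and 1 of 9 macrophage markers lower. There 1 of 4 hepatocyte markers was higher, with sums between 18.1 and 21.8 CPM in colitis and between 9.84 and 69.8 in CAC, and 0 of 6 T cell markers were called by edgeR or DESeq2, 1 of them with an unadjusted p under 0.05 and the fold change. The part of these markers was not tested.

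From CAC tissue to organoids, Lcn2 rose in both genotypes, by a log2 fold change of 4.42 in wild type (SE 0.53, adjusted p = 4.86e-06) and 1.49 in RNF138-/- (SE 0.47, adjusted p = 0.0125), and Saa1 fell in both, by 4.11 (SE 0.61, adjusted p = 3.55e-05) and 1.62 (SE 0.55, adjusted p = 0.0187). Over all genes the median log2 fold change was −0.14 in wild type and −0.22 in RNF138-/-, so these changes are slightly larger or smaller when set against it. In wild type 4 of 6 members were called, where 44.3% of genes were (17.5% higher and 26.8% lower): Lcn2, Lrg1 with 2.99 (SE 0.56, adjusted p = 2.82e-04), Saa1 and Saa2. Saa2 was at least 61.4-fold lower in wild-type organoids, a bound that sets each organoid library at 3 counts and covers counting error only. Here too, and in RNF138-/-, Saa2 passed the filter only through its CAC libraries. In RNF138-/- 4 of 6 were called, where 44.4% of genes were (17.9% higher and 26.5% lower): Lcn2, Hp with 1.31 (SE 0.39, adjusted p = 0.00913), Saa1 and Saa2, the latter with −5.36 (SE 0.90, adjusted p = 1.65e-04) from 4 counts in the 3 organoid libraries. Saa3 was called in neither genotype (0.66, adjusted p = 0.199, and −0.04, adjusted p = 0.936), nor were Hp in wild type (0.40, adjusted p = 0.395) and Lrg1 in RNF138-/- (−0.84, adjusted p = 0.172). The call of Saa1 in RNF138-/- was lost without CAC replicate 1 (−0.98, adjusted p = 0.137) or organoid replicate 1 (−1.58, adjusted p = 0.0540) or 2 (−1.46, adjusted p = 0.0703), and that of Lcn2 without CAC replicate 3 (1.13, adjusted p = 0.0593). Between CAC tissue and organoids 6 of 7 fibroblast markers were higher in wild type and 7 of 7 in RNF138-/-. In the same contrasts 8 and 7 of 9 macrophage markers and 7 of 10 neutrophil markers in each genotype were lower, with 1 neutrophil marker higher in each. T cell markers were lower in 6 of 6 in each genotype and endothelial ones in 6 and 7 of 7. Of 7 B and plasma cell markers 6 were lower in each genotype, with 1 higher in RNF138-/-. Of 7 adipocyte markers 7 were lower in wild type and 1 was higher in RNF138-/-. Of 10 epithelial markers 5 were lower and 1 higher in wild type and 2 lower in RNF138-/-, and of 6 smooth muscle markers 5 were lower in wild type and 4 higher in RNF138-/-. Their part was not tested.

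**Figure D4:**
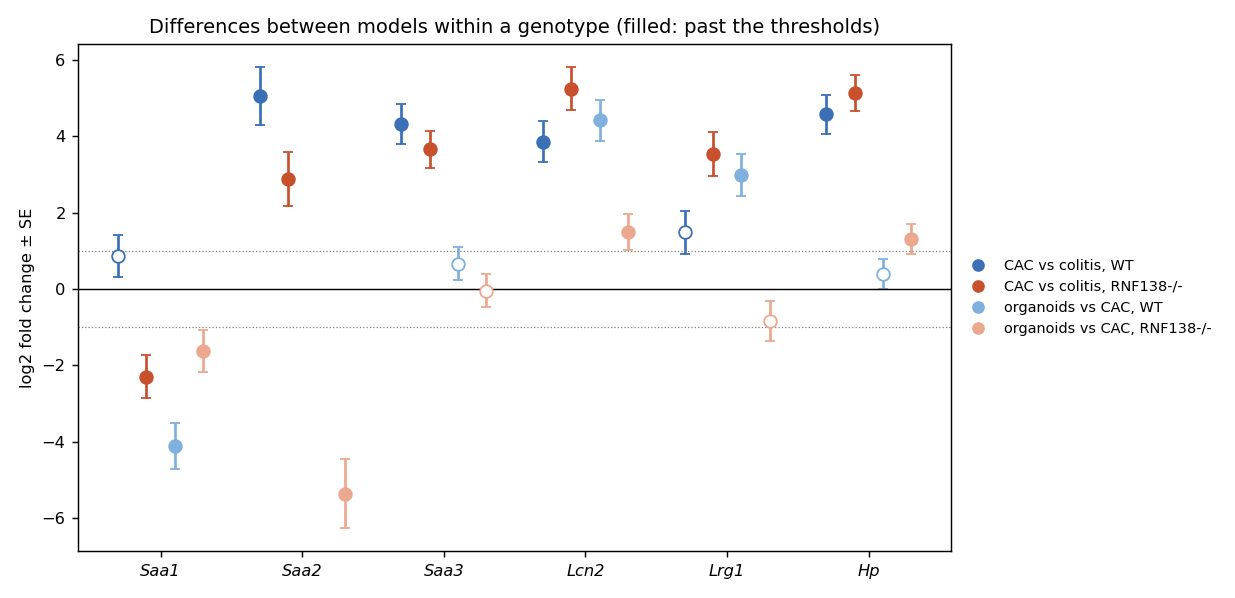
Log2 fold changes of the 6 genes from colitis to CAC and from CAC tissue to organoids, each within wild type (WT, blue shades) and within RNF138-/- (orange shades), with the standard error as bars; dotted lines mark a fold change of 2, filled points passed both thresholds, and Saa2 in wild-type organoids, with 0 counts, is not drawn. From colitis to CAC, 5 members are above 0 in both genotypes, whereas Saa1 is at 0.87 in wild type and −2.30 in RNF138-/-.

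Genes that act around the 6 members were grouped by role. Of the 28 other acute-phase reactants, 27 are in the table. No gene of this list was called between the genotypes in colitis (11 tested, 4 with an unadjusted p under 0.05 and the fold change, and 1 called by DESeq2) or CAC (15 tested, 4 and 4), whereas in the organoids 5 of 18 rose and 1 fell. The share of all genes called also differed between the models, at 0.0902%, 5.37% and 15.0%. The median log2 fold change in the organoids was 0.83 over the list against −0.04 over all genes. Named by the smallest adjusted p, these were the serine protease inhibitors Serpina3g (log2 fold change 1.83, adjusted p = 0.00143) and Serpina3m (3.20, 0.00739) and the metalloreductase Steap4 (1.48, 0.00855), which rose, and the orosomucoid gene Orm1 (−1.96, 0.0212), which fell from 1.01 ± 0.0647 to 0.261 ± 0.189 CPM (SD, n = 3). Between colitis and CAC 6 of 21 rose in wild type, where 13.6% of all genes were called, and 8 rose and 1 fell in RNF138-/-, where 37.1% were (17.5% higher and 19.6% lower). Among them were Cp, which encodes the copper-carrying ferroxidase ceruloplasmin (2.03, adjusted p = 6.17e-04, and 2.72, adjusted p = 1.49e-05), and Mt2, a metallothionein gene with 0 counts in wild-type colitis and 3.77 ± 3.16 CPM in wild-type CAC. The list median of the log2 fold change was 1.05 in wild type and 0.93 in RNF138-/-, against 0.04 for all genes in both.

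Of 13 cytokine genes known to induce these proteins, Il6 and Il22 were barely detected in tissue. Il6 had means of at most 1.16 CPM in the 4 tissue groups and 180.4 ± 55.9 and 219.5 ± 44.5 CPM in wild-type and RNF138-/- organoids (SD, n = 3), and Il22, which drives Saa and Lcn2 genes in gut epithelium, had means of at most 0.186 CPM in every group. Il1b was the 1 cytokine of 9 tested that edgeR called between the genotypes in CAC, where it rose with a log2 fold change of 2.05 (adjusted p = 0.0343). This call was lost without RNF138-/- CAC replicate 1 or 2. Of the 9 cytokines tested, 8 had a positive log2 fold change with a median of 1.51, 6 had an unadjusted p under 0.05 with the fold change and DESeq2 called 4, all higher. None of 5 was called in colitis by edgeR or DESeq2, with 0 of them at an unadjusted p under 0.05 with the fold change. In the organoids 6 of 10 rose and 1 fell, where 7.94% and 7.04% of all genes did, and the list's median log2 fold change was 1.61 against −0.04 for all genes. The 4 with the smallest adjusted p were Il11 (1.496, adjusted p = 0.00323), Csf3 (3.07, adjusted p = 0.00333), which encodes the neutrophil growth factor G-CSF, and the IL-6 family members Lif (1.72, adjusted p = 0.00371) and Osm (adjusted p = 0.00429), whose level was 0.0449 ± 0.0778 CPM in wild type, from very few reads, and 2.23 ± 1.18 CPM in RNF138-/- (SD, n = 3). In CAC against colitis 5 of 10 rose in wild type and 9 of 10 in RNF138-/-, where 9.78% and 17.5% of all genes rose, with Il1a (4.34 and 5.70), Il1b (2.03 and 3.35) and Il33 (1.94 and 2.98) past the thresholds in both. Their median log2 fold changes were 1.99 and 2.89.

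Among 13 receptor genes for these cytokines, Il17rc (−1.83, adjusted p = 0.0293) and Il22ra1 (−1.49, adjusted p = 0.0341), which encode subunits of the IL-17 and IL-22 receptors, fell in RNF138-/- CAC, and Il1rap (1.07, adjusted p = 0.00101), Tnfrsf1b (1.34, 0.00194), Osmr (1.91, 0.00299) and Il1r1 (1.91, 0.00338) rose in RNF138-/- organoids. Both CAC calls were lost without RNF138-/- CAC replicate 1 or 2. In colitis none of the 13 was called by edgeR or DESeq2, and 0 had an unadjusted p under 0.05 with the fold change. Of 13 transcription factor and feedback genes the 1 called between the genotypes was Nfkbiz (1.54, adjusted p = 0.00736, organoids), an IκB-like nuclear cofactor. In colitis and CAC 0 were called, where 3 and 1 had an unadjusted p under 0.05 with the fold change and DESeq2 called 1 each. Between colitis and CAC Cebpa and Cebpb, which encode the C/EBP factors, fell in wild type (−1.86 and −2.19) and in RNF138-/- (−2.29 and −2.26), and Rel rose (1.04 and 1.87). From CAC to organoids Cebpb rose with a log2 fold change of 5.11 in wild type and 4.86 in RNF138-/-, and 7 and 9 of the 13 rose, where 17.5% and 17.9% of all genes rose and 44.3% and 44.4% were called.

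Of 15 genes for receptors and partners of the proteins, Cd163, the haptoglobin-hemoglobin receptor of macrophages, fell in RNF138-/- CAC (−1.91, adjusted p = 0.0343), where its ligand gene Hp rose. Cd163 levels were low, at 1.94 ± 0.492 CPM in wild-type and 0.536 ± 0.0942 CPM in RNF138-/- CAC (SD, n = 3). A link to Hp was not tested, and both calls were lost without RNF138-/- CAC replicate 1 or 2. In the organoids Eng, which encodes endoglin, and Acvrl1, its partner in TGF-β signalling, rose in RNF138-/- (1.25, adjusted p = 0.0117, and 2.09, adjusted p = 0.00375), where Lrg1 fell. None of 13 was called in colitis by edgeR or DESeq2, and 2 had an unadjusted p under 0.05 with the fold change. In CAC against colitis Mmp9, whose product forms a complex with lipocalin 2, rose with a log2 fold change of 5.73 in wild type and 5.02 in RNF138-/-, and Hmox1, which breaks down the heme that haptoglobin and its receptor bring in, with 1.17 and 2.29. The haptoglobin receptor gene Cd163 was at 0 counts in wild-type organoids.

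**Figure D5:**
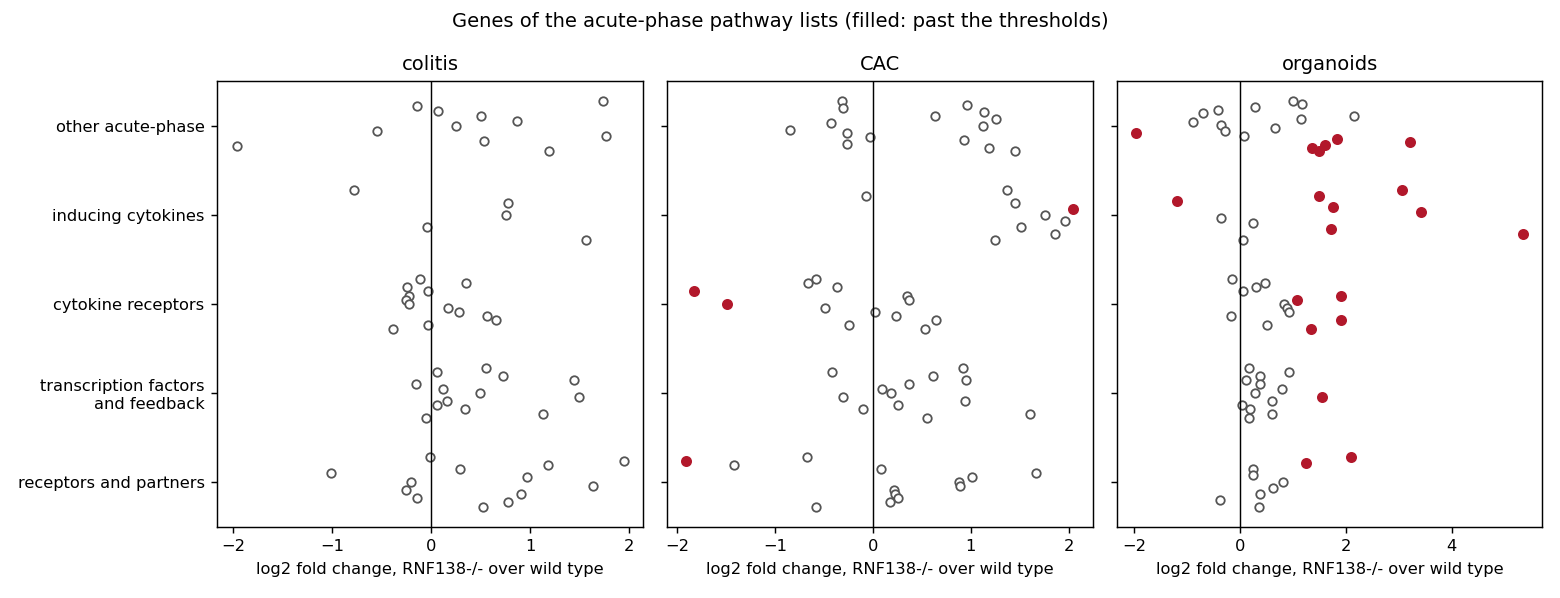
Log2 fold change between RNF138-/- and wild type (horizontal axis) for the genes tested of 5 lists in colitis, CAC and organoids, one point per gene; filled red points passed both thresholds. No point is filled in colitis, 4 are filled in CAC, and in the organoids the inducing cytokines have 6 filled points to the right of 0 and 1 to the left.

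Likeness between genes was measured as Pearson's r of log2(CPM + 1) over the 18 libraries, among 12423 genes with a mean of at least 5 CPM, as a description: the libraries fall into 6 groups and share their normalization. Closest were Cp for Lcn2 (r = 0.99), Lypd8 for Saa1 (0.97), Tmem64 for Lrg1 (0.97), Il18rap for Hp (0.97) and for Saa3 (0.96), and Gm5560 for Saa2 (0.93). Within the members Saa3 and Hp had r = 0.92 and Lcn2 and Lrg1 r = 0.91, while Saa1 ran against Lcn2 (−0.85) and Lrg1 (−0.82). After the group means were subtracted, which leaves only the spread between replicates, Saa1 was the gene most like Saa2 (r = 0.89, n = 18) and Lrg1 the gene second most like Lcn2 (r = 0.89), after Hey1 (0.91). Before that step Saa1 and Saa2 had r = 0.54. Saa2 was at most 0.721 CPM in any colitis or organoid library, so its spread comes mostly from CAC. The likeness of Saa3 and Hp was not kept (r = −0.04). The closest genes to the other members by this measure were Acsl5 for Saa1 (0.88), Zcchc4 for Saa3 (0.93), Sema4d for Lrg1 (0.95) and Slc19a2 for Hp (0.92). The complement regulator Cfi was among the 3 closest for both Lcn2 (0.85) and Lrg1 (0.92).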

How the data were processed

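The authors deposited a table of raw read counts per gene, with no normalization, for 18 libraries of mouse colon tissue and organoids, and a second table holding the results of the authors' comparisons (log2 fold changes and p-values), which was not used. Per the labels and the submitters' processing notes the libraries were made with a TruSeq kit and the notes name STAR 2.6.1d, HTSeq 0.11.2, DESeq2 and mm10, whereas the study's methods name Cufflinks and Gencode annotation. The strand setting is not given in the sources used here, so reads of antisense neighbours cannot be told apart from the named genes.

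Counts were analysed with edgeR 4.0.16 in R 4.3.3 by TMM normalization, filterByExpr, glmQLFit and glmQLFTest with Benjamini-Hochberg adjustment over all genes tested. Genotypes were compared within each model (6 libraries), and models and interactions in 1 fit of 18 libraries. Calls needed an adjusted p under 0.05 and, except for interactions, a fold change of at least 2. Counts of genes at an unadjusted p under 0.05 used the same fold change rule. SE is the log2 fold change divided by the square root of F. The fits were tested on simulated data. RPKM uses the length of the principal transcript in GENCODE M21, to which 36700 gene identifiers (99.8%) matched. DESeq2 1.42.0 was an alternative, beside RLE normalization, no filter, the replicate number as a block, other libraries in the fit and leaving out each library. Samples with the same number deviated together in colitis (r = 0.32, 0.17 and 0.62 over 12077 genes), which pairs them there by the rule that every r exceeds 0.1, although RNF138-/- replicate 2 had r = 0.32 with wild-type replicate 1 and RNF138-/- replicate 1 had r = 0.31 with wild-type replicate 2. The other comparisons did not meet it.

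The 6 members and the gene lists were chosen with earlier results of these data known. From each list up to 4 genes per comparison were eligible to be named, those past the thresholds with the smallest adjusted p, and levels of Il6, Il22, Mt1, Mt2 and single markers are given beside them. Intervals and floors cover counting error only.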

Additional observations from a re-analysis of the deposited data

Results flagged for a closer look

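In 4 cases the effect of genotype on a member differed between models by an interaction contrast in edgeR, 1 of 6 members between CAC and colitis, where 14.1% of all genes were called, and 3 of 6 between organoids and CAC, where 23.3% were. The log2 difference for Saa1 was −3.16 between CAC and colitis (adjusted p = 0.0151), and 16 of 16 alternatives kept this call, with adjusted p of at most 0.0383. RNF138-/- was lower than wild type in 3 of 3 CAC libraries and higher than every wild-type library in 2 of 3 colitis libraries. Between organoids and CAC the log2 difference was −3.82 for Lrg1 (adjusted p = 0.00252) and −2.93 for Lcn2 (adjusted p = 0.00577), each kept in 16 of 16 alternatives, and 2.49 for Saa1 (adjusted p = 0.0295), kept in 11 of 16. For Lrg1 and Lcn2, 3 of 3 RNF138-/- libraries were above every wild-type library in CAC and 3 of 3 were below every one in the organoids. Sex and genotype cannot be told apart in the organoids, and the part of the cell markers that moved with genotype was not tested.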

How the results depend on the processing

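Of 728 values of single members under the alternatives, 666 kept their direction and their side of the thresholds. The number of members called moved from 0 to 1 in colitis (Saa3, with DESeq2, with no filter or with the replicate block), from 2 to 6 (DESeq2) or 5 (replicate block, or 1 fit of 18 libraries) in CAC, and from 3 to 1 in the organoids (replicate block, or 1 fit of 18 libraries). Leaving out libraries gave between 0 and 2 members in CAC, 1 and 4 in the organoids, and 1 and 2 for the interaction of CAC and colitis, which was also 2 with DESeq2 or no filter. For this last one the added member was Lrg1. Counts over all genes moved in colitis from 15 to 343 (DESeq2), 354 (no filter) and 89 (replicate block), and to between 0 and 147 without 1 library. They moved in CAC from 954 to 2464 (DESeq2), 1641 (no filter) and 2834 (1 fit of 18 libraries), and to between 0 and 1136 without 1 library, and in the organoids from 2292 to between 1515 and 3130. In CAC no setting that kept all libraries, the replicate block included, called fewer than 913 genes. From colitis to CAC in wild type the count went from 2636 to 1689 with only the 6 libraries compared and to between 1726 and 3147 without 1 library. The interaction counts went from 2733 to between 1537 and 3448 without 1 library for CAC and colitis (3665 with DESeq2), and from 1378 to 2343 (DESeq2) and to between 476 and 1920 without 1 library for organoids and colitis. The cause of these moves was not tested.

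Saa3 changed sign between CAC and RNF138-/- organoids without CAC replicate 2 (0.099), organoid replicate 1 (0.022) or organoid replicate 3 (0.026), within a range from −0.18 to 0.10 over all libraries left out. Without wild-type organoid replicate 3 it did so between wild-type CAC and organoids (−0.11, range to 0.97) and in the interaction of organoids and CAC (0.077, range from −1.01). Each was far from the threshold, with an adjusted p of at least 0.828. In CAC and the organoids the samples share only a number, and the block took Saa3 in CAC to an adjusted p of 0.0612 and Lrg1 and Lcn2 in the organoids to 0.0534 and 0.0564, while Saa1, Saa2, Lcn2 and Lrg1 in CAC passed with 0.0230, 0.0448, 0.0212 and 0.0311. In none of the 3 models, colitis included, did every sample correlate best with its own number. The block changed no member count in the 4 comparisons between models, and added Saa2 (adjusted p = 0.0309) to the interaction of organoids and CAC, as DESeq2 did (4.58, adjusted p = 0.0240). Saa2 had at most 14 counts in any colitis or organoid library and did not pass the filter there.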
